A study of Mus musculus with 6 samples.

Results

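The genes described here are 31 genes of the piRNA pathway and of transposon control in the male germ line, and their DNA methylation was read in male germ cells of mice. The list names genes by their function and uses no measured value, but it was chosen with earlier results of these data known. All 31 had at least 3 cytosines within the gene or 1 kb of either end that were listed in every library, as had 17338 of 21884 genes of the genome. Methylation was measured by reduced representation bisulfite sequencing (RRBS), which reads CpG-rich fragments released by a restriction digest. There were 3 libraries labelled Control and 3 labelled CSDS, for chronic social defeat stress (repeated defeat by an aggressive mouse). The labels give no strain, age, germ cell stage or length of exposure, and do not say that the 3 libraries of a group came from separate animals, so the p-values measure only the spread between these samples.

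Piwi-interacting RNAs (piRNAs) are small RNAs bound by PIWI proteins. Long precursors are made from genomic clusters, cut and trimmed at mitochondria and in the granules called nuage, and loaded onto PIWI proteins, which cut transposon RNA in the cytoplasm or direct new DNA methylation to transposons in fetal germ cells. Many of these genes are active mainly in germ cells, and the promoters of several of them are methylated in somatic tissues.

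Median coverage was similar in the 6 libraries, but the number of cytosines listed was not. CSDS replicates 2 and 3 listed 3156788 and 3017470 cytosines, and the other libraries between 2420308 and 2671515. Each cytosine was read at least 10 times, with a median coverage of 44 to 50 reads. Whether the number listed bears on the differences below was not tested. The germ cell origin was checked at imprinted regions. The H19, Meg3 and Rasgrf1 regions, methylated in the male germ line, read at 85.4% to 99.3%, and the maternally methylated regions Snrpn, Peg3, Kcnq1ot1, Peg10 and Nnat read at 6.19% to 26.7%. Snrpn read 20.4%, 24.1% and 26.7% in Control and 17.7%, 10.2% and 10.2% in CSDS, with no overlap. At Peg3, Kcnq1ot1, Peg10 and Nnat the groups overlapped. The cause of the Snrpn difference was not tested. The libraries differed in how many cytosines read as C where methylation is low. At 27 mitochondrial CpG cytosines the median share read as C in Control 1, 2 and 3 was 8.90%, 8.84% and 10.04%, and in CSDS 1, 2 and 3 it was 8.50%, 4.41% and 4.53%. At the promoters of 78 ribosomal protein genes it was 12.5%, 12.5% and 12.6% in Control and 11.6%, 6.82% and 7.60% in CSDS. CSDS replicate 1 was thus near the Control libraries at both kinds of site, and CSDS replicates 2 and 3 were lower. The part of this in the differences below was not tested beyond the values given beside them. Differences below are as deposited unless stated, and for some the value with the mitochondrial share removed from each library is given beside them.

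Promoter sequence at 4 starts of 3 genes shows how unlike these starts are in CpG content. Tex19.1, a mammal-specific germ cell protein that restrains retrotransposons, is shown because its promoter end had the highest Control level among genes with a RefSeq start and the largest difference. Ddx25, a helicase of the chromatoid body (the nuage of round spermatids), had the lowest Control level. Tdrd7, a Tudor protein of the chromatoid body, is shown at its most upstream start and at a start inside the gene, chosen after their values were seen. The stretches are the 250 bases before each start, 5′ to 3′ on the gene's strand (RefSeq, GRCm38.p6), with every CpG in capitals. In the stretches of Tex19.1 and of the upstream start of Tdrd7, 0 cytosines were measured. The promoter levels given for these genes come from cytosines outside the stretches.
Tex19.1, chr11:121145893-121146142, plus strand: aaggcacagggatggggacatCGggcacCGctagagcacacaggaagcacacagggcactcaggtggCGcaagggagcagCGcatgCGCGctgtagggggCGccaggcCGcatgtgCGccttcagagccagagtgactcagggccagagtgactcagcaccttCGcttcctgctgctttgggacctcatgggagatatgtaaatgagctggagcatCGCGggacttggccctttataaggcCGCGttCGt
Ddx25, chr9:35558471-35558720, minus strand: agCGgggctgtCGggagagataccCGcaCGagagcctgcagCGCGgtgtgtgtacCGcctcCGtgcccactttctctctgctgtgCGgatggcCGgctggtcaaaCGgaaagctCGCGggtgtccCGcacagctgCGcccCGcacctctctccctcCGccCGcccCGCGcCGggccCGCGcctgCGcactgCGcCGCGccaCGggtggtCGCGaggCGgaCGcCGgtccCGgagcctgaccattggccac
Tdrd7 upstream start, chr4:45965085-45965334, plus strand: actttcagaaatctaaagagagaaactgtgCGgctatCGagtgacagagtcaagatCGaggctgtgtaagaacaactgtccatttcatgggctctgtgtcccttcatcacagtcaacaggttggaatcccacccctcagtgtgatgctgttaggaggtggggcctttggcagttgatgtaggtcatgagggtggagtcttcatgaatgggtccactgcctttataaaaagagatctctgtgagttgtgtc
Tdrd7 inner start, chr4:45972047-45972296, plus strand: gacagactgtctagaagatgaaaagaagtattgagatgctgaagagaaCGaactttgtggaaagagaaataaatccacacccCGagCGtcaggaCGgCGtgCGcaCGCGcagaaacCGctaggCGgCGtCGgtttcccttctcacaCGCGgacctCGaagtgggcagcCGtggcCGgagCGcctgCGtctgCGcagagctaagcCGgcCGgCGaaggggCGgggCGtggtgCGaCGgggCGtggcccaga
The stretch of Ddx25 holds 34 CpGs and that of Tex19.1 holds 15. Tdrd7 has 3 CpGs before its upstream start and 28 before the inner one. Over the 300-base promoters of the 23 genes with a RefSeq start (250 bases before it to 50 after) the median number of CpGs was 20, from 4 to 48, against a median of 13 over 17491 promoters.

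The letters CACGTG, the E-box bound by MAX dimers, were found in 10 of those 23 promoters (43.5%) and in 7.91% of all promoters of the same length. The 10 are those of Ddx25, Ddx4, Fkbp6, Mael, Mov10l1, Piwil1, Pld6, Stk31, Tdrd1 and Tdrd9. GCGGGAA, an E2F core, was in 3 of the 23 (13.04%), those of Ddx4, Hells and Tdrd5, and in 6.01% of all. AACNG, a core read by MYB proteins, was in 82.6% of them and in 79.2% of all. Each was searched on both strands and counted whether or not it overlapped another, and a match describes the letters only.

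The promoter ends (within 1 kb of the most upstream RefSeq start, or of the gene end with more listed cytosines where no start is given) were mostly low in methylation. Of the 31 genes, 23 had at least 3 measured cytosines there, and 16 of these 23 (69.6%) were under 20% in Control, against 87.0% of 14355 promoter ends of the genome. Their median Control level was 15.8%, from 8.98% at Ddx25 to 93.4% at Morc1. No start is given for Morc1, so its window may not be its promoter. Among genes with a RefSeq start the highest was Tex19.1, at 39.3%. The gene bodies were mostly high: the median Control level was 94.2% over 24 genes, against 89.5% over 13261 genes. Exonic and intronic cytosines are not told apart here.

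**Figure D1:**
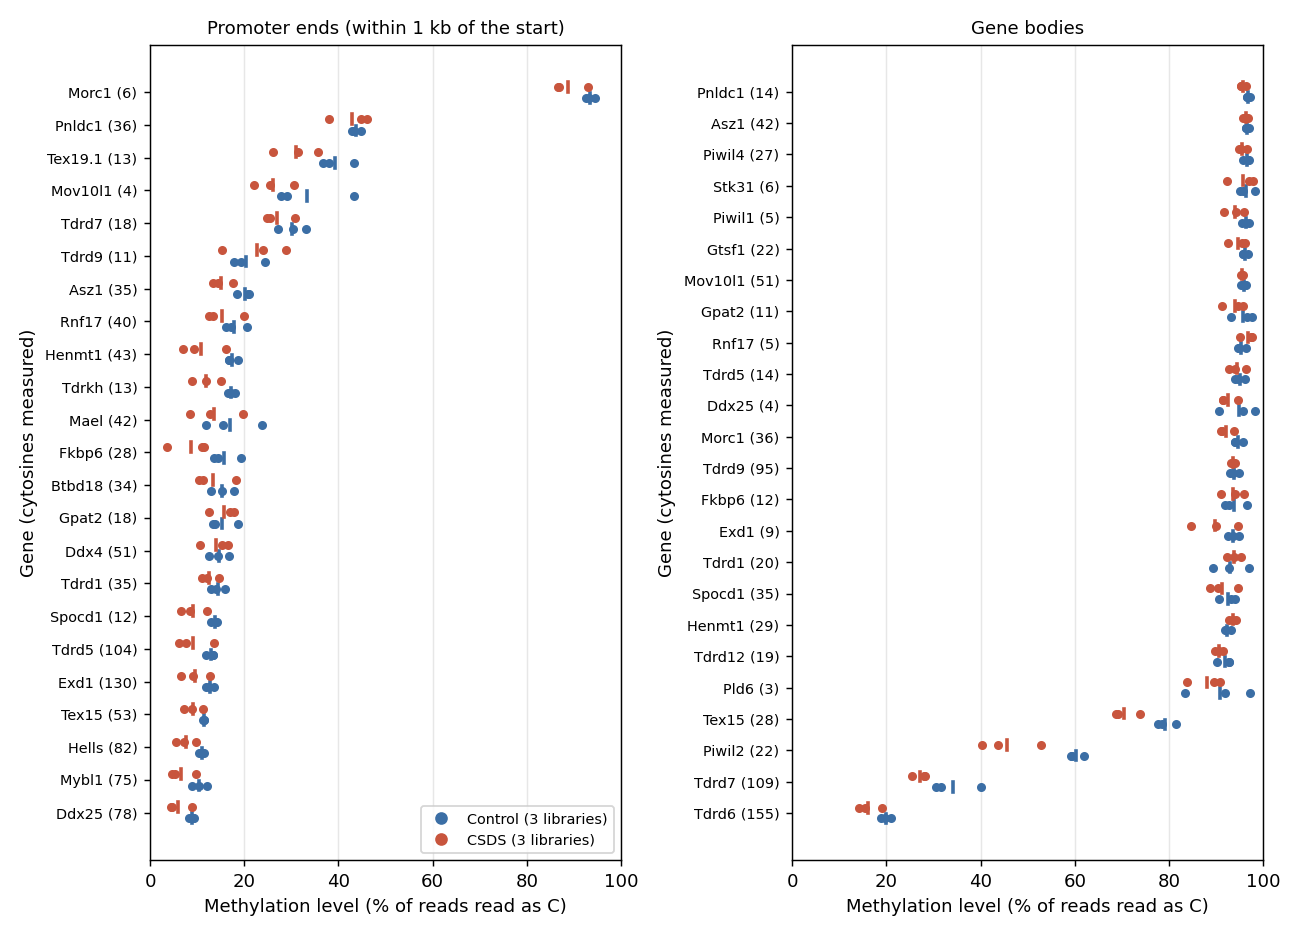
Methylation level (% of reads read as C) of each library at the promoter ends of 23 genes (left) and in the bodies of 24 genes (right), with the number of cytosines measured in brackets; points are libraries, vertical ticks group means. Most promoter ends lie under 25% and most bodies over 90%; Tex15, Piwil2, Tdrd7 and Tdrd6 have lower bodies.

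Large clusters of cytosines were mostly low and small ones mostly high. When cytosines no more than 500 bp apart were joined, 96 clusters of at least 3 cytosines lay in or near the 31 genes. Of 16 clusters with 30 or more cytosines, 15 were under 25% in Control. The exception was a cluster of 34 cytosines in the body of Asz1, at 96.7%. Of the 80 smaller clusters, 68 were over 80%. Over the whole genome 90.9% of 13651 large clusters were under 25% and 75.02% of 120028 small ones were over 80%.

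Some intermediate levels were averages over CpGs whose strands disagreed. A CpG has a cytosine on each strand, and in 64 of 735 CpGs of these genes with both strands measured the strands differed by 50 points or more in the mean of the 6 libraries, 55 of them at promoter ends. Where RefSeq promoter sequence could be read, these CpGs lay in the letters CCGG, the site of MspI, an enzyme commonly used for RRBS (the labels do not name the enzyme). In these genes 21 of 32 measured CpGs in CCGG (65.6%) disagreed and 0 of 166 others. Over all RefSeq promoters 9667 of 19889 CpGs in CCGG (48.6%) disagreed and 0 of 92495 others.

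Henmt1, the methyltransferase that protects piRNA 3′ ends, shows the pattern. Its stretch, chosen after its values were seen, is printed for its sites of this kind, with CCGG in capitals.
Henmt1, chr3:108940307-108940556, plus strand: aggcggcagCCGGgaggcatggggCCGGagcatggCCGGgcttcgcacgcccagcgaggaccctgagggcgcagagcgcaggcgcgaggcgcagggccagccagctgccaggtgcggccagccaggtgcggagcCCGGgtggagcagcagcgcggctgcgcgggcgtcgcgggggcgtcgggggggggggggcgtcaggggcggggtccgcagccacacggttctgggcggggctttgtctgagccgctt
At 1 of these CpGs the plus-strand cytosine, at position −214 from the start, read between 0% and 15.9% over the libraries and its minus-strand partner read 100% in all 6, on 14 to 26 reads. At another, at position −115, the plus strand read 94.1% to 100% and the minus strand 6.67% to 18.7%. Without such CpGs the median Control level of the promoter ends was 13.5% over 22 genes, and the median difference between groups moved from −3.37 to −3.24 points.

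At the promoter ends nearly every gene read lower in CSDS than in Control, and by about as much as other genes. As deposited, 21 of 23 were lower, with a median difference of −3.37 points against −3.63 points over all 14355 promoter ends, 96.2% of which were lower. At 7 of the 23 the groups did not overlap, CSDS lower, as at 42.2% of all promoter ends. No gene passed the call rule (an adjusted p under 0.05 and a difference of at least 10 points in the moderated quasi-binomial F test), of these genes or of all, a background of 0%. Of the 14355 promoter ends, 5851 had an unadjusted p under 0.05, 3 of them among the 23, and limma on log ratios called 53, none of them among the 23.

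With the mitochondrial share removed, the differences lay on both sides of 0. They ran from −6.31 at Tex19.1 to 5.65 at Tdrd9, with a median of −0.16 points against −0.38 over all genes, and 13 of 23 were lower. The sign turned at 8 of the 23, those of Btbd18, Ddx25, Ddx4, Exd1, Pnldc1, Rnf17, Tdrd1 and Tex15. The groups did not overlap, CSDS lower, at 3 of the 23 and at 8.3% of all promoter ends. Those 3 were Tex19.1, Henmt1 and Asz1. With the ribosomal protein gene share removed instead, the median was 0.44 points, against 0.22 over all genes, and the sign turned at 12 of the 23. Among those are Ddx25, Hells, Mybl1 and Tex15, whose Control means were then under 0, a level that methylation cannot have.

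Leaving out CSDS replicate 1 changed which values passed a test. Without it the deposited median was −4.91 points, against −5.06 over all genes, and 15 of the 23 had an adjusted p under 0.05, as had 82.4% of all promoter ends. Tex19.1 was then the single gene of the 23 that was called, with 1.28% of all promoter ends called. With that library left out and the mitochondrial share removed, the median was −0.76 points, against −0.53 over all.

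**Figure D2:**
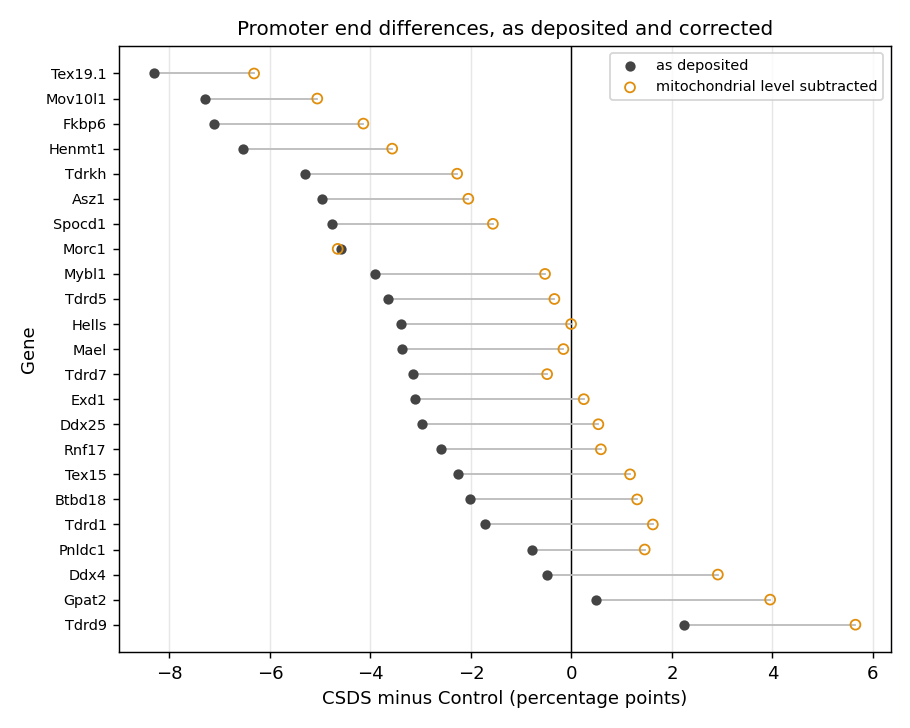
Difference of group means, CSDS minus Control in percentage points, at 23 promoter ends as deposited (filled) and with the mitochondrial share read as C removed (open). Deposited values run from −8.30 at Tex19.1 to 2.24 at Tdrd9; with the share removed their median moves from −3.37 to −0.16.

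Tex19.1 (chr11:121146143-121148314) had the largest promoter difference. Its 13 cytosines, 127 to 295 bases after the start, read 36.6%, 43.3% and 38.1% in Control (39.3% ± 3.51, SD, n = 3) and 35.6%, 31.5% and 26.03% in CSDS (31.04% ± 4.82, SD, n = 3), on 707 to 825 reads a library. The groups did not overlap, and the difference of −8.30 points had an adjusted p of 0.191 (−6.31 points with the mitochondrial share removed). Without CSDS replicate 1 it was −10.6 points with an adjusted p of 0.013.

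The difference at Tex19.1 lay in 1 stretch of it, chosen after its values were seen and so not tested. The 5 cytosines 127 to 191 bases after the start, all on the minus strand, read 38.6%, 47.3% and 31.4% in Control and 21.4%, 12.4% and 9.13% in CSDS, on 166 to 219 reads. This is a difference of −24.8 points, and −23.8 with the mitochondrial share removed. The other 8 cytosines, 210 to 295 bases after the start, read 36.1%, 42.1% and 40.03% in Control and 41.5%, 38.6% and 33.6% in CSDS, a difference of −1.48 points. CSDS replicate 1 was thus below every Control library in the first stretch and between them in the second. Each of the 5 was covered by 31 to 44 reads a library, and cytosines this close can lie on the same reads. At its far end 4 cytosines read 99.6%, 97.3% and 97.9% in Control and 91.1%, 97.3% and 97.5% in CSDS, a difference of −2.99 points with an adjusted p of 0.534 (−0.88 without CSDS replicate 1).

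Of the PIWI proteins none had 3 measured cytosines at a promoter end. Piwil1 (MIWI), which binds piRNAs of meiotic and later cells, and Piwil4 (MIWI2), the nuclear PIWI protein of fetal germ cells, were read in their bodies at 96.2% and 96.5% in Control, with differences of −2.31 and −0.95 points. Piwil2 (MILI, chr14:70372477-70436898), a PIWI protein that cuts transposon RNA, had the largest body difference of the 31 genes. Its 22 cytosines read 59.3%, 62.0% and 59.2% in Control (60.2% ± 1.59, SD, n = 3) and 52.8%, 40.3% and 43.6% in CSDS (45.6% ± 6.49, SD, n = 3). Control and CSDS were apart, and the difference was −14.6 points with an adjusted p of 0.118 (−18.2 points and 0.0032 without CSDS replicate 1).

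The share of reads on low cytosines of Piwil2 moved with that value. Its body holds a cluster of 12 cytosines between 7.34 and 7.60 kb from the upper gene end and clusters of high level elsewhere; the files used here give no start for Piwil2. The low cluster read 14.96%, 21.8% and 27.3% in Control and 22.7%, 13.1% and 14.1% in CSDS, a difference of −4.72 points in which the groups overlapped. The 11 cytosines under 50% in Control took 39.9%, 38.5% and 46.3% of the body's reads in Control and 51.9%, 59.6% and 58.7% in CSDS, again with no overlap. With each cytosine weighted equally the body difference was −3.30 points, and the groups overlapped.

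**Figure D3:**
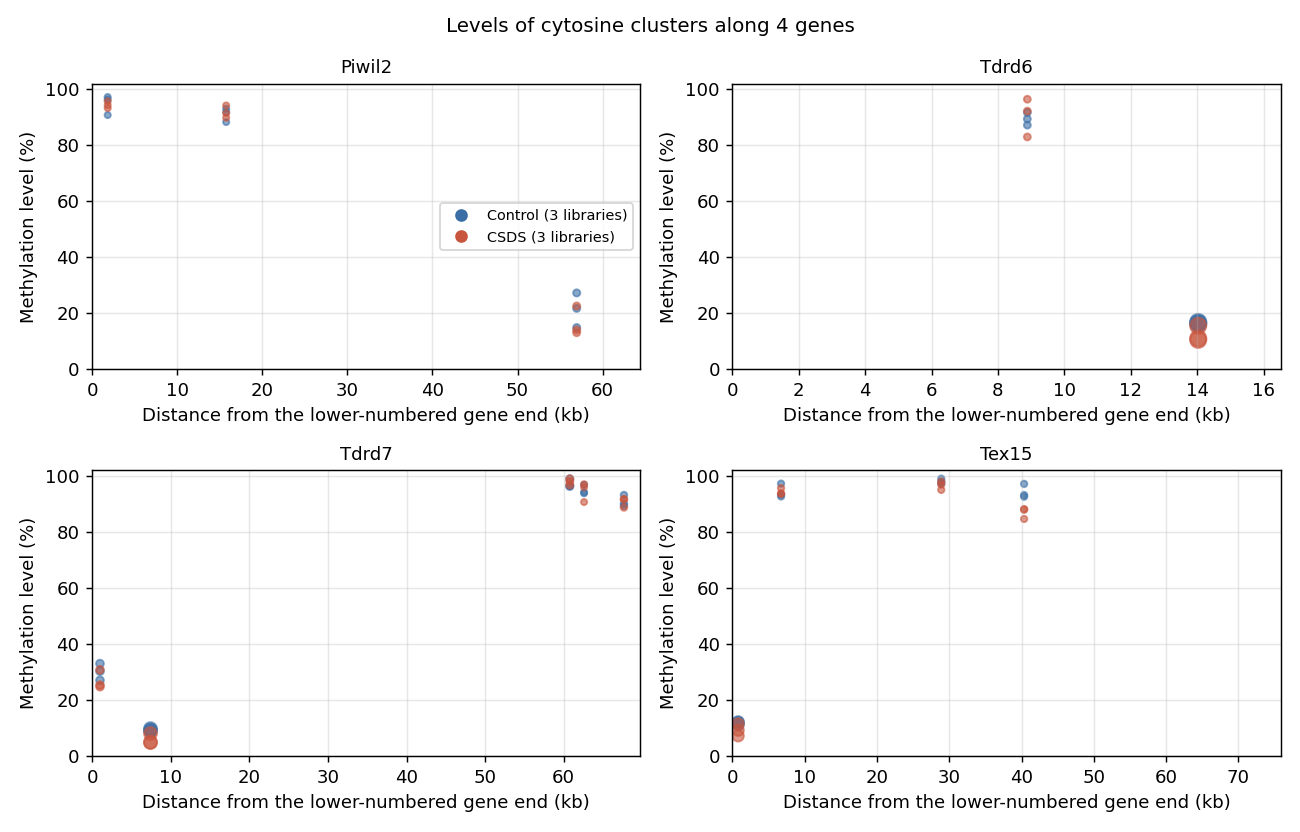
Methylation level (%) of each library at the cytosine clusters of Piwil2, Tdrd6, Tdrd7 and Tex15 against the distance from the lower-numbered gene end (kb); larger points hold more cytosines. Each gene holds at least 1 cluster under 25% and others near 90% or above, so a sum of reads over the gene mixes them.

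Tudor proteins bind methylated arginines of PIWI proteins and build the nuage. Tdrd7 (chr4:45965027-46034766) had a promoter end of intermediate level. Its 18 cytosines read 33.1%, 30.4% and 27.1% in Control (30.2% ± 2.99, SD, n = 3) and 30.8%, 24.8% and 25.4% in CSDS (27.0% ± 3.32, SD, n = 3). The groups overlapped, and the difference of −3.15 points had an adjusted p of 0.470 (−0.48 points with the mitochondrial share removed, and −1.71 without Control replicate 1 or −5.06 without CSDS replicate 1). The body of Tdrd7 held a second, larger cluster of 84 cytosines, from 6886 to 7340 bases after the upstream start, which spans the inner start printed above. It read 9.85%, 9.28% and 9.11% in Control and 8.09%, 4.99% and 4.91% in CSDS. Control and CSDS were apart there (−3.42 points, adjusted p 0.226 over 133679 clusters, of which 0% were called), and with the mitochondrial share removed the difference was 0.02 points. As a whole the body of Tdrd7 read 40.1%, 31.7% and 30.5% in Control and 27.9%, 28.2% and 25.4% in CSDS, with no overlap. That difference of −6.94 points (adjusted p 0.184) was −2.56 points with cytosines weighted equally. It was −3.93 points without Control replicate 1, and −4.71 with the mitochondrial share removed, where the groups overlapped. The 82 body cytosines under 50% in Control took 63.4%, 73.0% and 74.2% of its reads in Control and 76.2%, 73.4% and 76.3% in CSDS. These shares overlapped. The 82 differed by −3.22 points, and the other 27 body cytosines by −0.58.

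Tdrd6, a large scaffold of the chromatoid body (chr17:43615334-43631846), is another gene whose listed body cytosines were mostly low. Its 155 body cytosines read 21.1%, 18.9% and 19.7% in Control and 18.99%, 15.4% and 14.2% in CSDS, a difference of −3.71 points with an adjusted p of 0.181 (−0.70 with the mitochondrial share removed). A cluster of 143 of these cytosines, which begins 1.54 kb from the upper gene end, read 16.97%, 16.3% and 16.5% in Control and 15.6%, 11.1% and 10.6% in CSDS. The groups were apart there (−4.20 points, adjusted p 0.229, and −1.08 points with the mitochondrial share removed). Neither end of Tdrd6 had listed cytosines, and no start is given for it.

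**Figure D4:**
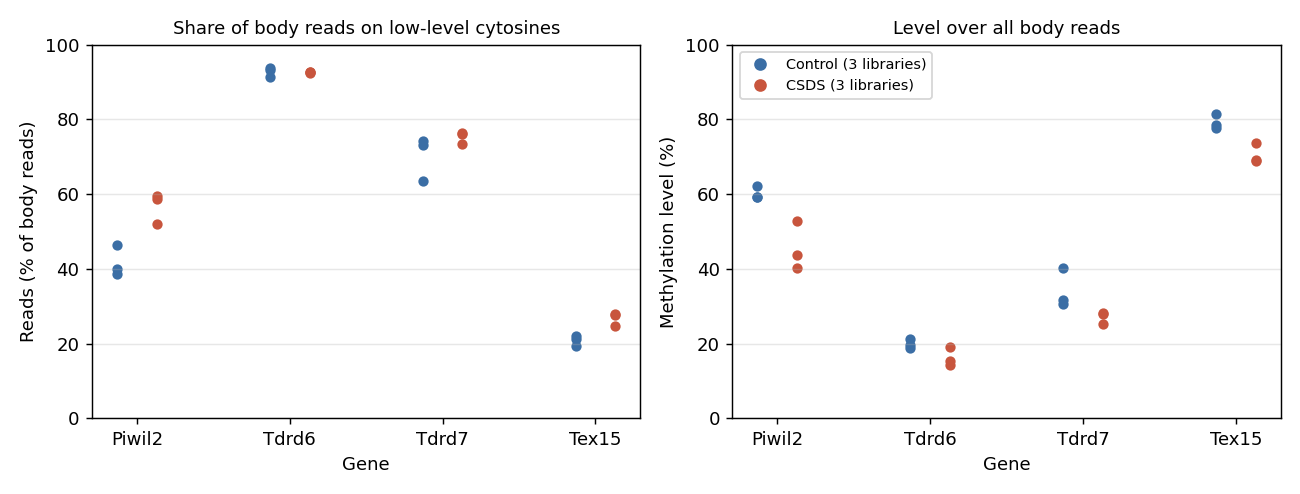
Left, share of each library's body reads (%) that fall on cytosines under 50% in Control, for Piwil2, Tdrd6, Tdrd7 and Tex15; right, the level (%) over all body reads. In Piwil2 and Tex15 the CSDS libraries have the larger shares and the lower levels, with no overlap. In Tdrd7 the shares overlap, with Control replicate 1 lowest, and in Tdrd6 they are alike.

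Tdrd9, a helicase that works with MIWI2 (chr12:111971488-112068854), had the highest promoter difference, and its groups overlapped. Its 11 cytosines read 24.4%, 17.8% and 19.3% in Control and 28.9%, 24.0% and 15.2% in CSDS, a difference of 2.24 points with an adjusted p of 0.638. Without CSDS replicate 1 the sign turned, to −0.84 points. Tdrkh, the mitochondrial Tudor protein that helps trimming (chr3:94413243-94434854), read 17.3%, 17.9% and 16.6% in Control and 15.1%, 8.97% and 11.9% in CSDS. Its groups did not overlap (−5.30 points, adjusted p 0.209, and −2.27 with the mitochondrial share removed), and without discordant CpGs its Control mean was 8.29%. Its window also covers the end of the non-coding gene 1700040D17Rik.

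Rnf17, a RING-finger and Tudor protein that limits the amplification cycle of piRNAs, read 16.2%, 17.1% and 20.5% in Control and 19.95%, 12.6% and 13.5% in CSDS. Its groups overlapped, with a difference of −2.59 points. Tdrd1, a partner of MILI, and Tdrd5, needed for transposon silencing, were lower at their promoter ends, with Control means of 14.3% and 12.8% and differences of −1.73 and −3.66 points; neither passed the test, and with the mitochondrial share removed they were 1.62 and −0.34 points. Tdrd12, a cofactor in making piRNAs for MIWI2, and Stk31, a Tudor protein with a kinase domain, were measured in their bodies only, at Control means of 91.9% and 96.3%, with differences of −1.27 and −0.63 points.

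The proteins that cut, trim and modify piRNAs follow. Mov10l1, the helicase that feeds precursors into processing (chr15:88982891-89055152), read 29.1%, 27.8% and 43.2% in Control and 30.7%, 22% and 25.5% in CSDS at 4 cytosines, on 150 to 243 reads. The groups overlapped, and the difference of −7.29 points had an adjusted p of 0.476. Without Control replicate 3, the highest library, it was −2.36 points. Both of its CpGs were strand-discordant: at the one that begins 705 bases after the start, the plus strand read 94.1% to 100% and the minus strand 5.19% to 12.2%. Its intermediate mean is thus a mean of high and low cytosines, and no cytosine was left without such CpGs. The body of Mov10l1 read 95.9% in Control, with a difference of −0.50 points over 51 cytosines.

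Henmt1 (chr3:108939454-108979885) read 16.7%, 16.7% and 18.6% in Control (17.3% ± 1.10, SD, n = 3) and 16.03%, 7.01% and 9.36% in CSDS (10.8% ± 4.68, SD, n = 3) over 43 promoter cytosines. No library crossed between groups, with a difference of −6.54 points (adjusted p 0.118), −3.57 with the mitochondrial share removed and −3.25 with cytosines weighted equally. Of these, 39 cytosines around the start read 11.8%, 8.51% and 13.2% in Control and 11.5%, 4.88% and 4.97% in CSDS, where the groups overlapped. The remaining 4, at 826 to 859 bases after the start, read 60.4%, 51.1% and 59.0% in Control and 53.0%, 46.0% and 47.6% in CSDS and include 1 discordant CpG. The body of Henmt1 differed by 1.14 points, with groups that overlapped, and by −0.25 points with cytosines weighted equally.

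Fkbp6, a co-chaperone needed for piRNA production (chr5:135291704-135351809), had no discordant CpG at its promoter end. Its 28 cytosines read 14.5%, 19.4% and 13.5% in Control (15.8% ± 3.14, SD, n = 3) and 10.98%, 11.4% and 3.65% in CSDS (8.69% ± 4.37, SD, n = 3), on 511 to 1820 reads. All CSDS values were below all Control values (−7.11 points, adjusted p 0.171); with the mitochondrial share removed the difference was −4.14 points and the groups overlapped. Without CSDS replicate 3 the deposited difference was −4.59 points. Its far end, with 3 cytosines, read 96.7%, 93.6% and 94.2% in Control and 94.1%, 92.9% and 96.5% in CSDS.

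Asz1, a scaffold on the mitochondrial surface (chr6:18050964-18109061), read 20.8%, 18.4% and 21.1% in Control (20.1% ± 1.47, SD, n = 3) and 17.6%, 14.4% and 13.5% in CSDS (15.2% ± 2.17, SD, n = 3) over 35 cytosines. There was no overlap of the groups (−4.97 points, adjusted p 0.128, and −2.05 with the mitochondrial share removed). The strands differed, a split made after the values were seen. On the plus strand of the genome 17 cytosines read 29.1%, 38.3% and 32.9% in Control and 17.6%, 19.13% and 20.9% in CSDS, and on the minus strand 18 cytosines read 17.7%, 13.1% and 17.5% in Control and 17.6%, 13.2% and 11.3% in CSDS. Asz1 was thus apart between groups on the first strand, by −14.2 points, and overlapping on the second, by −2.07.

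Pnldc1, the exonuclease that trims piRNA 3′ ends (chr17:12888723-12910580), read 44.7%, 42.9% and 43.4% in Control and 44.8%, 37.9% and 46.0% in CSDS at the gene end with more cytosines. Its 36 cytosines form a cluster of 22 inside the gene, at 20.1%, 18.3% and 17.3% in Control and 16.7%, 14.4% and 17.5% in CSDS, and a cluster of 14 outside it, toward the neighbouring gene Mrpl18, at 93.5%, 93.2% and 93.2% in Control and 93.6%, 91.3% and 92.0% in CSDS. Its intermediate level is therefore that of a low and a high cluster together. Gpat2, a mitochondrial acyltransferase-like protein of the pathway, read 13.7%, 18.6% and 13.3% in Control and 17.8%, 12.5% and 16.9% in CSDS, a difference of 0.49 points with groups that overlapped (3.95 with the mitochondrial share removed, and −2.83 with cytosines weighted equally).

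Pld6, the mitochondrial nuclease that makes piRNA 5′ ends, was measured at 3 body cytosines. They read 97.3%, 91.9% and 83.4% in Control and 90.8%, 83.9% and 89.5% in CSDS, on 93 to 169 reads (−2.82 points, adjusted p 0.898). Exd1, a partner of Tdrd12, read 94.9%, 93.7% and 92.5% in Control and 94.7%, 90.0% and 84.7% in CSDS at 9 body cytosines (−3.84 points, adjusted p 0.565, and −1.29 points without CSDS replicate 3 or −6.28 without CSDS replicate 1). Its promoter end also covers an end of the neighbouring gene Chp1 and read 12.6% in Control, with a difference of −3.11 points (0.25 with the mitochondrial share removed). Gtsf1, which speeds cutting by PIWI proteins, was measured in the body only, at 96.1% in Control, with a difference of −1.33 points.

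The nuage helicases had low promoter ends. Ddx4 (VASA), a marker of germ cells, differed by −0.50 points between Control (14.6% ± 2.12, SD, n = 3) and CSDS (14.1% ± 3.14, SD, n = 3), and by 2.91 points with the mitochondrial share removed. Ddx25, whose window also holds an end of Pus3, read 9.21%, 9.41% and 8.33% in Control and 8.96%, 4.37% and 4.74% in CSDS. Its difference of −2.96 points was 0.54 with the mitochondrial share removed, and CSDS replicate 1 lay among the Control libraries. Mael, a nuage protein needed for transposon silencing, read 11.9%, 23.8% and 15.5% in Control and 19.6%, 8.55% and 12.8% in CSDS, the widest spread among Control libraries after Mov10l1 of the 23 promoter ends.

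Of the transcription regulators, Btbd18, needed to transcribe meiotic piRNA precursors, read 17.9%, 12.9% and 15.2% in Control and 18.2%, 10.5% and 11.2% in CSDS; its window overlaps Ctnnd1. Mybl1 (A-MYB), the activator of those precursors, had a Control mean of 10.5% ± 1.63 (SD, n = 3) and a CSDS mean of 6.58% ± 2.70 (SD, n = 3). Neither difference, −2.03 and −3.90 points, passed the test, and with the mitochondrial share removed they were 1.31 and −0.53 points.

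The genes that carry piRNA signals to chromatin were low at the promoter end, except Morc1, whose start is not given. Tex15, a nuclear partner of MIWI2 (chr8:33516689-33592503), read 11.5%, 11.6% and 11.3% in Control and 11.3%, 7.23% and 9.01% in CSDS at the gene end with more cytosines, a difference of −2.26 points (1.17 with the mitochondrial share removed). Its body read 77.6%, 81.4% and 78.6% in Control and 73.8%, 69.1% and 68.8% in CSDS, with no overlap (−8.66 points, adjusted p 0.118, and −10.3 points with 0.011 without CSDS replicate 1). As in Piwil2, CSDS libraries had more of their reads on low cytosines: 8 cytosines under 50% in Control took 21.2%, 19.4% and 21.9% of the body's reads in Control and 24.6%, 27.8% and 27.6% in CSDS. With cytosines weighted equally the body difference was −4.02 points. The other 20 cytosines of the body read 96.1%, 95.9% and 95.0% in Control and 93.5%, 92.8% and 90.8% in CSDS, which is −3.28 points, also with no overlap. Of these, a cluster of 6 cytosines 40.3 kb into the gene read 97.2%, 92.6% and 93.2% in Control and 88.2%, 87.9% and 84.7% in CSDS (−7.40 points, adjusted p 0.224).

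Spocd1, which links MIWI2 to the DNA methylation machinery, had a Control mean of 13.8% ± 0.684 (SD, n = 3) and a CSDS mean of 9.03% ± 2.87 (SD, n = 3), and its groups did not overlap as deposited (−4.76 points, adjusted p 0.288). Hells, a chromatin remodeller needed for DNA methylation of repeats, had a Control mean of 10.96% ± 0.531 (SD, n = 3) and a CSDS mean of 7.58% ± 2.14 (SD, n = 3), apart as well, with an adjusted p of 0.115 and a difference of −0.0066 points once the mitochondrial share was removed. Morc1, a GHKL ATPase needed for transposon silencing, read 93.4% in Control at the 6 cytosines of the gene end with more cytosines, and no start is given for it, so that end may not be its promoter. There the difference was −4.59 points, and in its body −2.53 points, with an adjusted p of 0.195.

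Taking the bodies as a list, 21 of 24 were lower in CSDS, with a median difference of −1.30 points against −1.47 over 13261 genes. The groups did not overlap, CSDS lower, at 5 of the 24 and at 23.1% of all bodies, and with the mitochondrial share removed at 3 of the 24 and at 14.5% of all. None was called, as in 0% of all bodies, where 2792 had an unadjusted p under 0.05 and limma on log ratios called 0. The bodies other than those of Piwil2, Tex15, Tdrd7 and Tdrd6 all had Control means between 90.9% and 96.8%, and their differences ran from −3.84 to 1.53 points. Without CSDS replicate 1, Piwil2 and Tex15 were called (3.53% of all bodies were), and Tdrd6 with them had an adjusted p under 0.05 (17.4% of all bodies had).

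Over clusters, 77 of the 96 were lower in CSDS, with a median of −1.50 points against −1.44 over all 133679. The groups did not overlap, CSDS lower, at 12 of the 96 and at 15% of all clusters, and with the mitochondrial share removed at 6 of the 96 and at 7.79% of all. The 5 clusters between 25% and 80% in Control were all lower, with differences from −8.30 to −2.84 points. They were those of Tex19.1, Mov10l1, Tdrd7, the second cluster of Henmt1 and a cluster at positions −1907 to −1480 from the start of Fkbp6. Of far gene ends only those of Tex19.1 and Fkbp6 were measured, and 0% of 4022 far ends were called (622 had an unadjusted p under 0.05, and limma called 0). Of all clusters 18585 had an unadjusted p under 0.05, and limma called 0.

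A second list of 40 other transposon control genes was read the same way, and 35 of them had at least 3 cytosines. All 30 measured promoter ends were lower in CSDS as deposited, with a median of −3.37 points and 0.06 once the mitochondrial share was removed, which turned the sign at 15 of the 30. At a coverage minimum of 20 the sign also turned at Prmt5 (2.81 points). Adad2, a germ cell RNA-binding protein, read 26.4%, 39.3% and 31.2% in Control and 23.7%, 15.3% and 22.03% in CSDS at its promoter end, with no overlap (−11.9 points, adjusted p 0.117, and −9.89 points with the share removed). Zfp809, a zinc-finger protein that silences proviruses, had a difference of −8.06 points with an adjusted p of 0.114 (−5.15 with the share removed), Apobec3, a cytidine deaminase, one of −5.80, and Samhd1, a nucleotide hydrolase, one of −5.60.

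Of 25 measured bodies of that list 19 were lower, with a median of −1.12 points, and none was called. Dnmt1, the maintenance DNA methyltransferase, read 63.8%, 63.6% and 62.6% in Control and 58.3%, 55.2% and 54.7% in CSDS (−7.25 points, adjusted p 0.102), and −1.37 points with cytosines weighted equally. Atrx, a chromatin remodeller read at 3 cytosines, and Morc2b, a GHKL ATPase, had differences of −5.85 and −5.26 points, and Apobec3 one of 6.89 with groups that overlapped (−0.12 with cytosines weighted equally). Of 8 far ends, that of Ehmt2 (G9a), a histone H3 methyltransferase, read 34.4%, 34.8% and 32.3% in Control and 29.4%, 27.1% and 25.7% in CSDS (−6.44 points, adjusted p 0.222). Those of Daxx, a histone chaperone, Adad2 and Prmt5, an arginine methyltransferase, had differences of −2.60, −1.79 and −1.60 points.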

How the data were processed

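RRBS libraries of germ cell DNA came from a Zymo-Seq kit, per the labels' protocols. The submitters' processing notes name Trim Galore 0.5.0, Bismark 0.20.0 and GRCm38. The deposited tables list, per the file headers, a read count (coverage) for each CpG cytosine and the percent read as C or T. Only cytosines with coverage of 10 or more are in them, and the percent times the count was whole to within 1e-06. Duplicate handling and conversion rates are not given in the sources used here.

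Of 3348459 cytosines, 2210988 were listed in all 6 libraries, and 2206320 were used after a cap on the 0.1% of highest coverage per library. Reads were summed over promoter ends (within 1 kb of the most upstream RefSeq start, GRCm38.p6, found for 23 of the 31 genes, otherwise of the denser gene end, for 6), over bodies (more than 1 kb from either end) and over far ends, with at least 3 cytosines each. No start was placed for Piwil2 and Tdrd6. A quasi-binomial model with group as its term was fitted to all windows of a kind. Its dispersion was moderated with limma 3.58.1 (R 4.3.3) and kept from going under 1. Adjusted p-values are Benjamini-Hochberg values over all windows of the kind. The method was tested on simulated data that held no shift shared by a whole library. That test therefore does not cover such a shift. Each SD is over the 3 libraries of a group. The share-removed values divide the percent read as T by 1 minus the library's share.

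Named with every library were promoter ends of 15% to 85% in Control, the 6 promoter ends, 6 bodies and 3 far ends of largest difference, and up to 4 genes per kind of window of the second list. The genes, lists and this rule were chosen with earlier results of these data known, and clusters, strand splits, discordant CpGs and the split at 50% were added after the data were seen. Coverage counts reads, not molecules, so counting error may be larger than the depth of 44 to 50 reads implies.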

Additional observations from a re-analysis of the deposited data

How the results depend on the processing

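The promoter differences changed when a share read as C was removed and when CSDS replicate 1 was left out. The ribosomal protein share is itself a promoter level, so removing it also takes out a difference shared by low promoters. The source of the differences was not tested. The median promoter difference was −0.16 points with the mitochondrial share removed and 0.44 with the ribosomal protein share removed. With the ribosomal protein share removed, the promoter ends of Ddx25 (1.21 points) and Tex15 (1.84) had groups apart with CSDS higher. Their Control means were then under 0, at −4.09% and −1.27%. Those of Mybl1 (−2.38%) and Hells (−1.83%) were under 0 as well. With the mitochondrial share removed the Control mean of Ddx25 was −0.31%. Promoter ends apart with CSDS lower numbered 3 with the mitochondrial share removed (8.3% of all promoter ends) and 1 with the ribosomal protein share removed. Such bodies numbered 3 under either (14.5% of all bodies under the first). Leaving out 1 library at a time gave 7 to 17 such promoter ends and 6 to 10 such bodies, with fewer libraries to overlap. The shares over all genes are not set beside these counts, so they are not read as a trait of these genes. Without CSDS replicate 1, 82.4% of all promoter ends had an adjusted p under 0.05 in the quasi-binomial test. Over the genome, leaving out 1 library called 0 to 184 promoter ends, 0 to 468 bodies, 0 to 73 far ends and 0 to 1488 clusters, the highest in each case without CSDS replicate 1, and limma called 53 promoter ends. Of the 23 promoter ends of these genes, 8 turned sign with the mitochondrial share removed and 12 with the ribosomal protein share removed, among them Btbd18 (1.31 and 1.96 points), Pnldc1 (1.46 and 1.92) and Rnf17 (0.59 and 1.21), with Mael (0.44) under the second; of the 24 bodies 2 turned under either, those of Fkbp6 and Tdrd9. Equal weights turned the promoter end of Gpat2 (−2.83) and the bodies of Henmt1 and Tdrd5. Leaving out 1 library turned the sign in at least 1 case at 5 promoter ends, 6 bodies and 1 far end. The promoter ranges were −0.54 to 2.19 points at Gpat2, −6.35 to 0.0083 at Mael, −2.32 to 1.71 at Pnldc1, −0.84 to 5.97 at Tdrd9 and −1.68 to 1.28 at Ddx4, and the others were the bodies of Pld6 (−6.55 to 0.38), Fkbp6, Stk31, Tdrd1, Tdrd5 and Tdrd9 and the far end of Fkbp6 (−1.36 to 0.56); the cause was not tested. At the 31 genes the coverage minimum of 20, no coverage cap, the 500 bp window, 5 cytosines and the removal of discordant CpGs turned no sign in the windows they left; in the second list the coverage minimum turned the promoter end of Prmt5 and the body of Pphln1. With a replicate block 0 promoter ends, bodies, far ends and clusters were called. Same-numbered libraries had correlations of −0.086, −0.079 and 0.023 in their deviations from the group means over promoter ends. These values cannot settle whether the numbers pair the libraries, and the labels do not say. The body of Pld6, the promoter end of Mov10l1 and the far ends rest on at most 317 reads a library.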

Other observations

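Inside genes of high level a few small clusters differed between groups in opposite directions; they were picked after their values were seen and none was called. In Tdrd12, 4 cytosines 55.7 kb into the gene read 85.9%, 92.0% and 90.3% in Control and 93.5%, 94.2% and 98.4% in CSDS, the single cluster of the 96 that was higher in CSDS with no overlap. Another 9 cytosines of Tdrd12, 1.72 kb into the gene, read 90.7%, 92.5% and 92.8% in Control and 87.9%, 87.1% and 87.2% in CSDS. In Tdrd9, 5 cytosines 18.8 kb into the gene read 96.2%, 97.4% and 92.1% in Control and 91.2%, 89.0% and 89.9% in CSDS. The adjusted p of these clusters was 0.382, 0.261 and 0.337. Removing the mitochondrial share moved their differences by under 1 point each, to 6.73, −4.57 and −5.29.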
